A study of Homo sapiens with 10 samples.

Results

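The genes described here are 8 targets and regulators of p53: MDM2, MDM4, GADD45A, SESN1, BTG1, BTG2, PPM1D and CCNG1. They were read from every Affymetrix probe set (the group of short probes that measures 1 transcript) that the platform annotation assigns to a single gene of the group. Such probe sets were found for 6 of the 8 genes, 9 probe sets in all, among 8226 genes with a probe set of their own. SESN1 and BTG2 had none, and their expression was not analysed here.

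The study measured total RNA of ST486, an established line of human Burkitt's lymphoma, which derives from a malignant germinal centre B cell. Cells had been transduced for 60 h with a lentivirus that carried either an shRNA against STK38, a serine/threonine kinase of the NDR family also called NDR1, or a non-target control shRNA. Each group had 5 arrays, so the series had 10 arrays and allowed 1 comparison. The title asks how STK38 bears on the activity of the transcription factor MYC. A single shRNA against STK38 was used, so effects of this hairpin on other transcripts cannot be told apart from effects of STK38 loss. Nothing in the labels says that replicates came from separate cultures; p-values then reflect the array-to-array spread alone, which may be technical.

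p53 is a transcription factor that is kept scarce in unstressed cells and accumulates after DNA damage and other stress. MDM2 is the ubiquitin ligase that marks p53 for degradation, and MDM4 is its relative that binds p53 and blocks its activity. MDM2 is itself a p53 target, which closes a negative feedback loop. GADD45A, BTG1, BTG2 and SESN1 slow growth or division, and PPM1D, the phosphatase WIP1, and CCNG1, cyclin G1, dampen the p53 response again.

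p53 binds a pair of adjacent copies of a 10-base motif, here called the p53 motif. The 250 bases upstream of each RefSeq start site (GRCh38.p14) were searched for such a pair with no gap and at most 3 mismatches in its 20 bases; the pattern reads nearly the same on both strands. This was found for 5.38% of 27305 genes, and for 2 of the 7 members with a promoter entry, MDM2 and SESN1. GADD45A had no entry and was not searched. MDM2 and SESN1 had 4 and 3 windows, where the other members had 1 or 2, and more windows give more chances of a match. MDM2 had 2 such pairs, which are shown because MDM2 is the feedback target whose transcript is described first below. They lie in the stretch chr12:68808913-68808990 on the plus strand, upstream of the inner start site of the gene, and capitals mark the bases that match the motif.
MDM2: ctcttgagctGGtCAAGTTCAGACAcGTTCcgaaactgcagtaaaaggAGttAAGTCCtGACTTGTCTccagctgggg
SESN1: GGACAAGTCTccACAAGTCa
The MDM2 pairs had 2 and 3 mismatches. The SESN1 pair, at chr6:109009018-109009037 on the minus strand, had 3. The best match was 4 mismatches for PPM1D, 5 for MDM4 and BTG2, and 6 for BTG1 and CCNG1. The E-box CACGTG, the best known MYC motif, which is its own reverse complement, was found in the same windows of 7.73% of genes and of 0 of the 7 members. A match describes letters only and shows no binding, and the lack of one says nothing about p53 or MYC.

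The values are log2 expression from GCRMA, a method that corrects, normalizes and summarises the probes. The targeted transcript fell: the brightest STK38 probe set went from 5.02 ± 0.22 to 2.83 ± 0.21 (SD, n = 5 each), and the brightest MYC probe set from 8.68 ± 0.25 to 7.30 ± 0.34. Over the array 2256 of 7535 probe sets tested were called in limma at an adjusted p under 0.05, which is 29.9%, with 14.1% higher and 15.8% lower with the STK38 shRNA. The B cell identity of the line was checked with 7 measured markers, of which CD22, CD79A, CD79B, MS4A1 and BLK were above background on all 10 arrays, and PAX5 and CD37 on none. In the B cell list 1 gene, CD79A, was called, as higher. Of the markers of other cells, 0 of 5 T cell and 0 of 2 erythroid genes were above background on any array, against 2 of 5 monocyte genes (S100A8 and S100A9), 1 of 4 fibroblast genes and 3 of 5 epithelial genes, of which KRT8 was above it on all 10; 0 genes of these lists were called. The mean level of each of these lists spanned similar ranges in both groups (epithelial 2.19 to 2.41 in controls and 2.27 to 2.66 with the STK38 shRNA; monocyte 1.90 to 2.09 and 1.88 to 2.24). STK38 shRNA replicate 4 stood apart, with a mean correlation of 0.982 with its group where the other 9 arrays had at least 0.992 with theirs. The members' values are given with and without it.

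Of the 6 members tested, 1 fell, GADD45A, and 1 rose, CCNG1. BTG1, PPM1D, MDM2 and MDM4 did not pass the test. The 2 calls among 6 probe sets stand beside 29.9% called over the whole array, so the members as a group were called about as often as other probe sets. Their median log2 fold change was 0.011, against 0.018 for all probe sets tested, and the groups overlapped at every member, while they did not overlap at 22.1% of all probe sets tested.

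**Figure D1:**
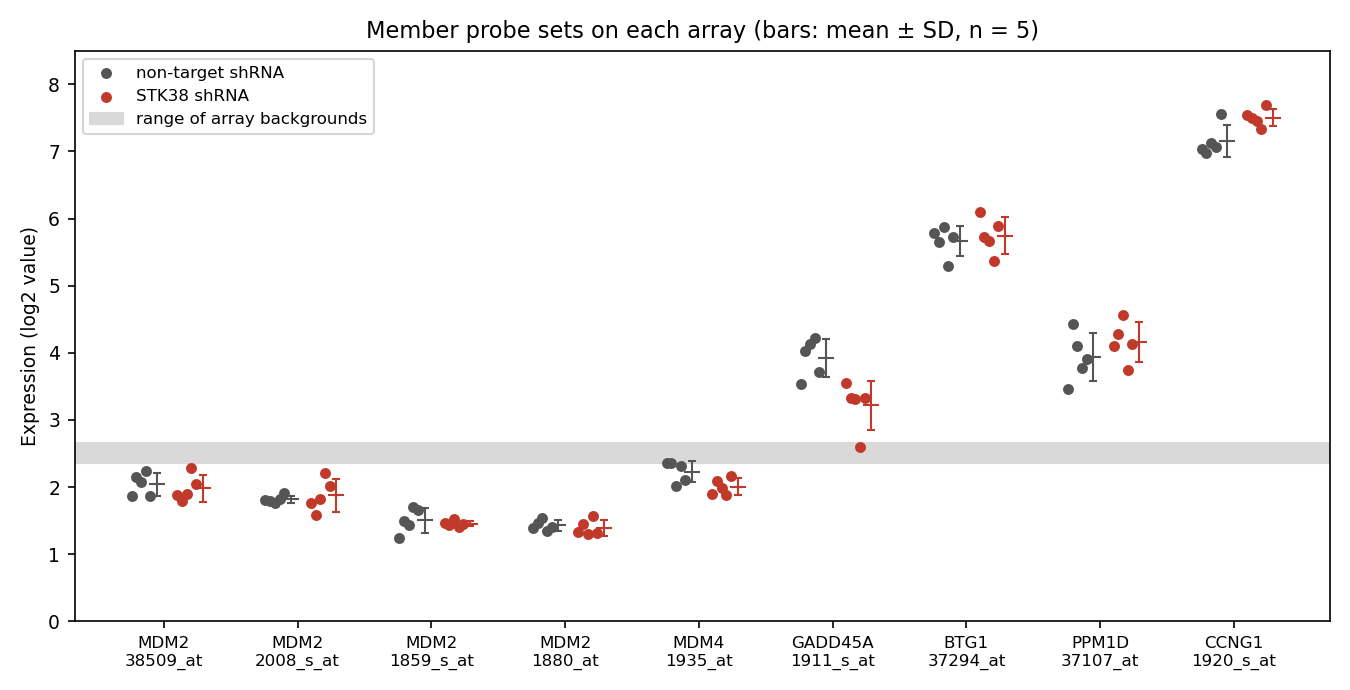
The log2 expression value on the y axis is plotted for each array at the 9 member probe sets, with controls in grey and STK38 shRNA arrays in red, and with the mean and SD of the 5 arrays beside the points. The grey band is the range of the array backgrounds, 2.37 to 2.65 in the STK38 shRNA arrays and 2.36 to 2.66 in the controls; all MDM2 and MDM4 points lie under the background of their own array.

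MDM2, the ubiquitin ligase of p53, was not above background on any array at any of its 4 probe sets. The background of an array was the 90th percentile of 23 control probe sets that should find no human sense transcript. The brightest MDM2 probe set (38509_at) read 1.87, 2.15, 2.08, 2.23 and 1.87 in control replicates 1 to 5, and 1.88, 1.79, 1.89, 2.29 and 2.04 in STK38 shRNA replicates 1 to 5. The groups overlapped throughout, and the highest value of all was that of STK38 shRNA replicate 4. The difference was -0.06 on the log2 scale (SE 0.10, 95% interval -0.28 to 0.16, limma adjusted p = 0.743). Without that array it was -0.14 (adjusted p = 0.236).

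The other 3 MDM2 probe sets fell under the filter on low values, a mean of 1.93 over all arrays, and were not tested. Their control means were 1.82 (2008_s_at), 1.51 (1859_s_at) and 1.43 (1880_at), and their STK38 shRNA means 1.88, 1.46 and 1.39. With a lower background that leaves out the reverse-strand ACTB and GAPDH controls, chosen after seeing the data, the brightest probe set was above background on 3 control and 2 STK38 shRNA arrays and 2008_s_at on 0 and 2. MDM2 mRNA was thus at or near the limit of detection.

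MDM4, which binds p53 without degrading it on its own, was just as dim at its only probe set (1935_at). The control arrays read 2.35, 2.36, 2.02, 2.31 and 2.11, and the STK38 shRNA arrays 1.90, 2.10, 1.98, 1.88 and 2.17. Most control arrays were higher than every STK38 shRNA array, but replicates 3 and 5 of the controls lay within the other group's range. The log2 difference was -0.22 (SE 0.092, adjusted p = 0.0836), which missed the threshold, and no array was above background; without control replicate 3 it was -0.28 with an adjusted p of 0.0402, and without STK38 shRNA replicate 4 it was -0.19 (0.101). With the lower background MDM4 was detected on 5 control and 2 STK38 shRNA arrays.

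MDM2 and MDM4 act as a pair, so the difference of their log2 values was also compared array by array, which does not depend on how arrays are scaled. It was -0.19 ± 0.20 in controls and -0.027 ± 0.27 with the STK38 shRNA (SD, n = 5 each; two-sided exact permutation p = 0.349, where the smallest possible is 0.00794). As both transcripts were under background, it is a difference of signals near the floor. The same comparison of BTG1 with BTG2 was not run.

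GADD45A, a small stress-induced protein that binds PCNA and the mitotic kinase CDK1 and activates MAP3K4, was the member with the largest change. Its probe set (1911_s_at) read 3.54, 4.02, 4.13, 4.22 and 3.72 in the control arrays. With the STK38 shRNA it read 3.55, 3.33, 3.31, 2.60 and 3.33. Every STK38 shRNA array but replicate 1 lay under every control array, and replicate 1 stood level with control replicate 1, the lowest of its group. The mean fell from 3.93 ± 0.29 to 3.22 ± 0.36 (SD, n = 5 each), by 0.71 on the log2 scale or 1.63-fold (SE 0.18, 95% interval -1.10 to -0.32, adjusted p = 0.00839, two-sided exact permutation p = 0.0159).

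The fall of GADD45A was called in each of the 10 fits that left out 1 array, with adjusted p between 0.00431 and 0.0274. STK38 shRNA replicate 4, the array that stood apart, had the lowest value and the only one under background (above it with the lower background). Without that array the fall was 0.55 with an adjusted p of 0.00431. The suffix _s_at is Affymetrix's mark for a probe set whose probes may match more than 1 transcript, so the value may hold signal of related transcripts.

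CCNG1, cyclin G1, binds B' subunits of the phosphatase PP2A and is a classical p53 target. It was the brightest member, above background on all arrays, and rose slightly. Its probe set (1920_s_at) read 7.04, 6.98, 7.13, 7.06 and 7.56 in control arrays and 7.54, 7.49, 7.46, 7.34 and 7.69 in STK38 shRNA arrays. Control replicate 5 lay among the STK38 shRNA arrays, and the other 4 control arrays lay under all of them. The mean went from 7.15 ± 0.23 to 7.50 ± 0.13 (SD, n = 5 each), a log2 fold change of 0.35 or 1.27-fold (SE 0.11, 95% interval 0.11 to 0.59, adjusted p = 0.0271, exact permutation p = 0.0397).

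The call of CCNG1 was close to the threshold. It was kept in 4 of the 10 fits without 1 array and lost without STK38 shRNA replicate 1 (adjusted p = 0.0573) or 5 (0.0765), and without control replicate 1 (0.0674), 2 (0.0695), 3 (0.0554) or 4 (0.0674), with log2 fold changes of 0.30 to 0.34 in those fits. Without control replicate 5 it was 0.45 (adjusted p = 0.00151), and without STK38 shRNA replicate 4 it was 0.39 (adjusted p = 0.010). The direction was the same in all of these fits.

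**Figure D2:**
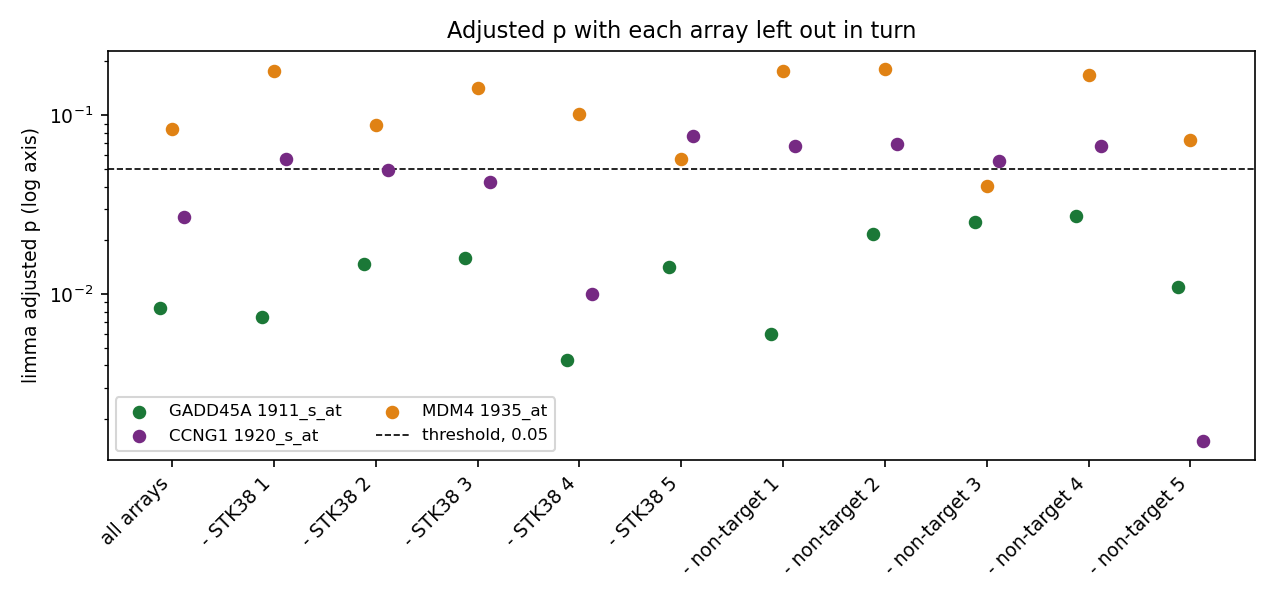
The limma adjusted p (log axis) of GADD45A, CCNG1 and MDM4 is plotted with all arrays and with each array left out in turn; the dashed line is the threshold of 0.05. GADD45A stays under the line in every fit, CCNG1 in 4 of the 10 fits without an array, and MDM4 is under it only without control replicate 3.

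PPM1D encodes WIP1, a phosphatase that reverses the phosphorylation of p53 and of the damage kinases. Its probe set (37107_at) read 3.47, 4.42, 4.10, 3.78 and 3.90 in the control arrays and 4.11, 4.28, 4.56, 3.74 and 4.14 in the STK38 shRNA arrays. The ranges overlapped widely, with control replicate 1 lowest and STK38 shRNA replicate 3 highest. The log2 fold change of 0.23 (SE 0.18, 95% interval -0.16 to 0.63) did not pass the test (adjusted p = 0.402). In the fits without 1 array it ran from 0.12 (without control replicate 1) to 0.36 (without control replicate 2) and was not called; without STK38 shRNA replicate 4 it was 0.34 (adjusted p = 0.114).

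BTG1, an antiproliferative protein of the BTG/TOB family that recruits the CCR4-NOT deadenylase to mRNAs and is often mutated in B cell lymphoma, was well expressed in both groups. Its probe set (37294_at) read 5.78, 5.65, 5.87, 5.30 and 5.73 in the control arrays. The STK38 shRNA arrays read 6.10, 5.73, 5.66, 5.36 and 5.89. The lowest value belonged to control replicate 4 and the highest to STK38 shRNA replicate 1. The log2 fold change was 0.08 (SE 0.14, adjusted p = 0.745), and its 95% interval of -0.23 to 0.39 leaves room for a small change either way. It ran from -0.010 without control replicate 4 to 0.18 without STK38 shRNA replicate 4 (adjusted p = 0.301), and was called in none of the fits without 1 array.

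**Figure D3:**
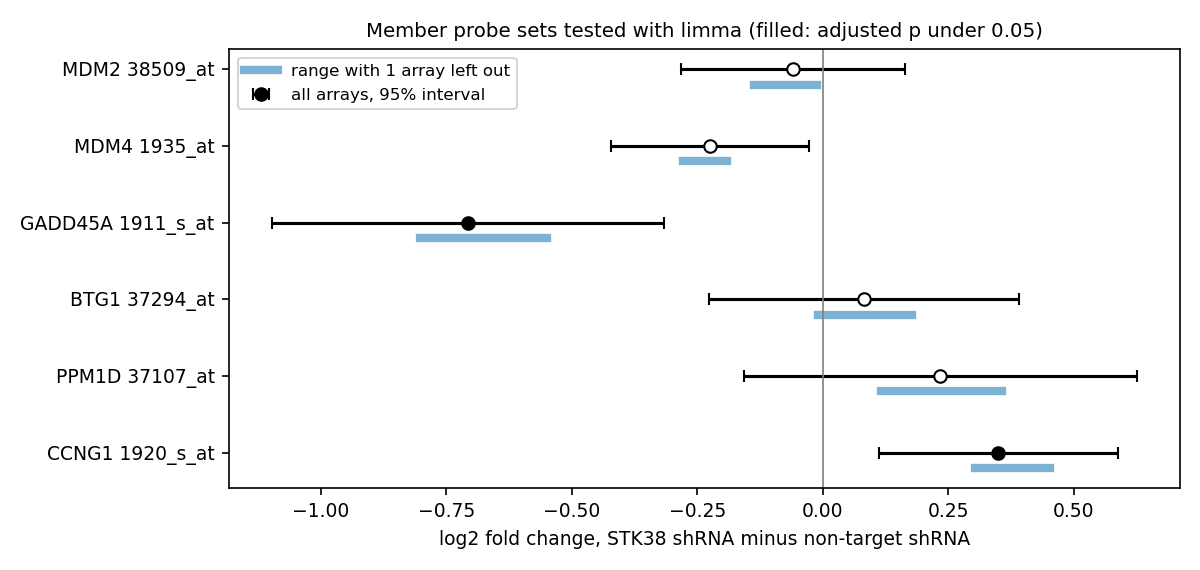
The log2 fold change of the 6 member probe sets tested (STK38 shRNA minus non-target shRNA, x axis) is shown with its 95% interval in black and the range over the fits without 1 array in blue; filled points passed the test. GADD45A at -0.71 and CCNG1 at 0.35 are the filled points, and the intervals of MDM2, BTG1 and PPM1D include 0. The interval of MDM4, an open point, runs from -0.42 to -0.028, as intervals are not adjusted over probe sets.

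The genes around these members were counted in 4 lists: regulators of p53, other p53 targets, relatives of the members, and their binding partners. Of 71 genes tested over the lists, on 1 probe set per gene, 27 were called, 14 higher and 13 lower, where over all 5403 genes 31% were called, 15.2% higher and 15.8% lower. Of the 27 calls 20 held in every fit that left out 1 array. All 27 held with the same sign without STK38 shRNA replicate 4, at 0.71 to 1.20 times their log2 fold change; that fit called 35 of the list genes, 22 higher and 13 lower, among 2817 of 7535 probe sets.

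Among regulators of p53 4 of 21 genes rose and 5 fell, with a median log2 fold change of -0.12 beside 0.019 over all genes. CSNK1A1, the kinase CK1 alpha that works with MDM4 to restrain p53, fell from 4.61 ± 0.25 to 2.79 ± 0.52 (SD, n = 5 each), or 3.52-fold (adjusted p = 1.79e-05), with 4 of 5 STK38 shRNA arrays above background; its other probe set was under background on all arrays. USP7, the deubiquitinase that stabilises both MDM2 and p53, fell from 6.74 ± 0.12 to 5.20 ± 0.43, or 2.91-fold (adjusted p = 8.90e-06). Without STK38 shRNA replicate 4 the falls were 1.59 and 1.36 on the log2 scale. TP53BP2, the p53-binding protein ASPP2, fell by 0.48 (1 of 5 STK38 shRNA arrays above background), while its relative PPP1R13B, or ASPP1, rose by 0.41. HDAC1, a deacetylase that acts on p53 among many proteins, rose at both probe sets, by 0.62 and 0.53. NPM1, a nucleolar protein that binds MDM2, fell by 0.30, and RPL11, a ribosomal protein that inhibits MDM2, rose by 0.24. The remaining calls were of dim genes: PML, a scaffold of nuclear bodies, exceeded background on 0 control arrays and 4 STK38 shRNA arrays and rose at least 1.05-fold at 1 of its 4 probe sets (2 others had 0.14 and 0.22 and did not pass, and 1 was not tested), and the acetyltransferase gene CREBBP was called lower with 2 control and 0 STK38 shRNA arrays above background. "At least" marks a bound taken from the background: control values were set at the background of their array and group means were compared. It leaves out sampling error and is not a confidence limit, and the STK38 shRNA mean includes an array under background. The damage kinases ATM, ATR, CHEK1 and CHEK2 were not called, with log2 fold changes of 0.04, -0.37, -0.04 and -0.15 at their brightest probe sets. ATR was close to the threshold (limma adjusted p = 0.0582), and without control replicate 5 its value was -0.45 with an adjusted p of 0.0263. It was also called with quantile normalization (adjusted p = 0.0290), array weights (0.0256) and the stricter filter (0.0421).

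Among other p53 targets 3 of 18 genes rose and 4 fell, with a median of 0.074. PCNA, the sliding clamp of DNA replication, fell at both probe sets, by 0.77 at the brighter and 1.43. DDB2, a DNA damage sensor of nucleotide excision repair, fell by 0.48 (adjusted p = 0.00442), BCL6, the germinal centre repressor, by 0.60 (3 of 5 STK38 shRNA arrays above background), and EI24, an endoplasmic reticulum protein linked to autophagy, rose by 0.64 (adjusted p = 0.000346). PMAIP1, the BH3-only protein NOXA, fell by 0.40 (adjusted p = 0.0236); that call was lost without STK38 shRNA replicate 3 (adjusted p = 0.0604) or control replicate 2 (0.0668) or 4 (0.0651). SFN, the cell cycle protein 14-3-3 sigma, rose by 0.50 (adjusted p = 0.0174), a call lost without STK38 shRNA replicate 1 (0.0501) or control replicate 4 (0.0534); its other probe set rose by 0.80 (adjusted p = 0.00288) and was called in all 10 of those fits. SUSD6, the remaining rise at 0.40 (adjusted p = 0.0309), was kept in 5 of the 10 fits without an array and lost without STK38 shRNA replicate 1 or 3 or control replicate 1, 2 or 3 (0.0501 to 0.0876), with arrays centred on their median (0.0546) and with the block (0.0517). The 5 BAX probe sets, of a pore-forming apoptosis protein, had log2 fold changes of -0.08 to 0.34. They were not called in the main fit, which used the deposited values of all arrays with no block or array weights. The brightest was called with the replicate number as a block (adjusted p = 0.0493) and without control replicate 1 (0.04999). Another had 0.34 with all arrays (adjusted p = 0.0766) and was called without STK38 shRNA replicate 4, at 0.44 (0.00643).

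CDKN1A, which encodes the cell cycle inhibitor p21 and is the best known p53 target of growth arrest, did not pass the test in the main fit of all arrays. It read 3.26, 3.42, 3.41, 3.69 and 3.02 in the control arrays and 4.35, 3.67, 3.81, 3.33 and 4.05 in the STK38 shRNA arrays. STK38 shRNA replicates 1, 3 and 5 lay above every control array, and replicates 2 and 4 lay within the control range. The log2 fold change was 0.48 (SE 0.18, adjusted p = 0.0579). It was 0.61 without STK38 shRNA replicate 4 (adjusted p = 0.00384) and 0.56 without control replicate 4 (adjusted p = 0.0426). CDKN1A was also called with quantile normalization of all arrays (adjusted p = 0.0192), with array weights (0.00482) and with the stricter filter (0.0435). GADD45A and CDKN1A, both brakes on the cell cycle, thus had opposite signs. The fall of GADD45A passed the test in the main fit, and the rise of CDKN1A only in some of the other fits.

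**Figure D4:**
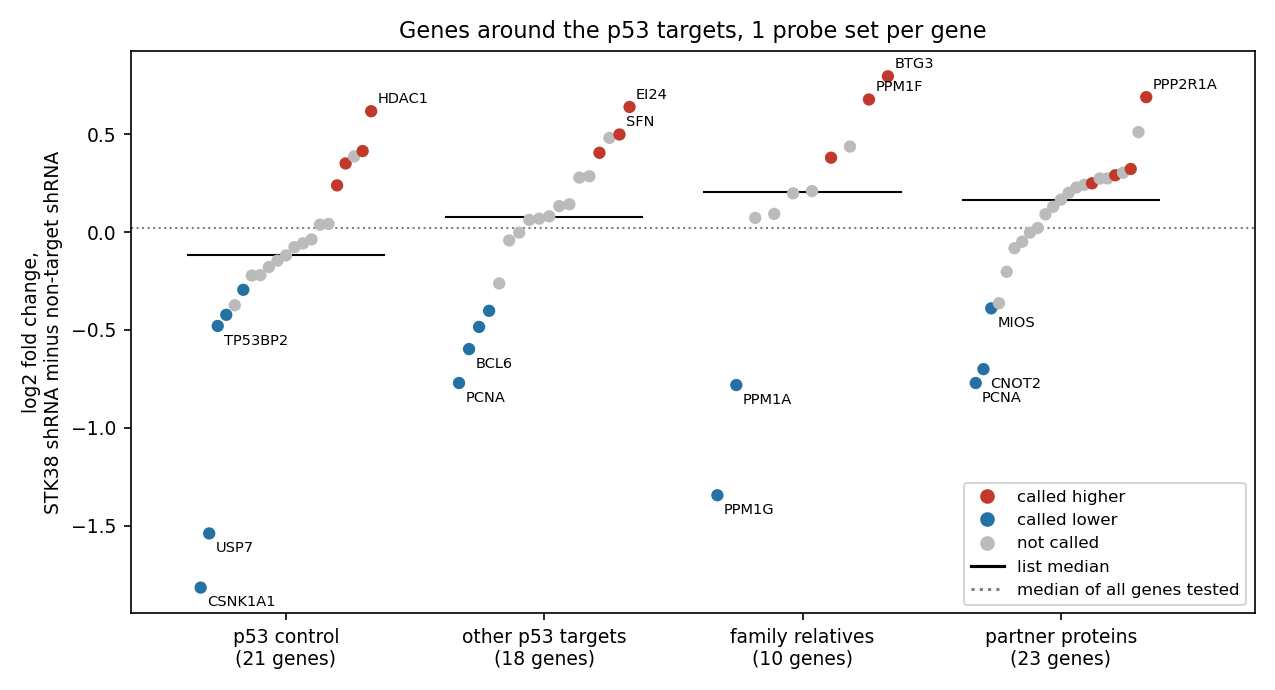
Each point is the log2 fold change of 1 gene (STK38 shRNA minus non-target shRNA, y axis), sorted within the 4 lists on the x axis: p53 regulators (p53 control), other p53 targets, family relatives and partner proteins. Red and blue points were called higher and lower, grey points were not called, black lines are list medians and the dotted line is the median of all genes; USP7, CSNK1A1 and PPM1G lie lowest.

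Among relatives of the members 3 of 10 genes rose and 2 fell, with a median of 0.20. In the BTG/TOB family BTG3 rose by 0.80 (from 5.32 ± 0.20 to 6.12 ± 0.15, SD, n = 5 each; adjusted p = 0.000129) and TOB1 by 0.38 (adjusted p = 0.00164), while TOB2 had 0.21 and did not pass. In the family of PPM1D, metal-dependent phosphatases, PPM1G, which acts on splicing factors, fell from 5.50 ± 0.16 to 4.15 ± 0.26, or 2.54-fold (adjusted p = 4.33e-06). PPM1F rose by 0.68 (adjusted p = 0.000125), above background on 3 control arrays. PPM1B had 0.44 and did not pass the test in the main fit (adjusted p = 0.129). PPM1B was called higher with the replicate block (adjusted p = 0.0475) and without STK38 shRNA replicate 1, at 0.58 (0.0426). PPM1A, which dephosphorylates SMAD proteins among others, fell by 0.78 (adjusted p = 0.0236), a call lost without control replicate 4 (adjusted p = 0.0538) or 5 (0.0666). Its second tested probe set fell by 0.39 (adjusted p = 0.0103), with groups that did not overlap and a call in all 10 of those fits. GADD45B, a relative of GADD45A, had 0.20 (adjusted p = 0.217), and CCNG2, cyclin G2, had 0.09 (adjusted p = 0.815). GADD45G was under background on all arrays and was not tested.

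Among binding partners 4 of 23 genes rose and 3 fell, with a median of 0.17. Of the partners of GADD45A, PCNA fell as given above, and MAP3K4 had -0.05 (adjusted p = 0.850). CDK1 rose by 0.32 (adjusted p = 0.0346) at its brightest probe set, called in 4 of 10 fits without an array; it was lost without STK38 shRNA replicate 1, 2, 3 or 5 or control replicate 1 or 5, with adjusted p from 0.0537 to 0.0824, as well as with the block (0.0519), median centring (0.0596) or no filter (0.0661). Its other probe sets had 0.05 (adjusted p = 0.810) and 0.02 (0.931). The partners of BTG1 in the CCR4-NOT complex were mostly not called, but CNOT2, a scaffold subunit, fell by 0.70 (adjusted p = 0.0157). CNOT9 had -0.36 at its brightest probe set (adjusted p = 0.166) and was not called there. Its second was called lower at -0.45 (adjusted p = 0.0490), in 2 of 10 fits without an array. PABPC1, the poly(A)-binding protein, rose by 0.25 (adjusted p = 0.00935). PPP2R1A, the scaffold subunit of PP2A, the phosphatase that CCNG1 binds, rose from 7.95 ± 0.21 to 8.64 ± 0.14, or 1.61-fold (adjusted p = 0.000120). Its B' subunit gene PPP2R5B, detected on 0 control arrays and 4 STK38 shRNA arrays, rose at least 1.04-fold (adjusted p = 0.0372), a call kept only without STK38 shRNA replicate 4 or control replicate 5 among the fits that left out 1 array (0.0544 to 0.105 in the others). It was also lost with median centring (0.0598), quantile normalization (0.0815) and no filter (0.0562). MIOS, a subunit of the GATOR2 complex that sestrins bind, fell by 0.39 (adjusted p = 0.0430) in a call lost without STK38 shRNA replicate 1, 2, 3 or 5 or control replicate 1, 2 or 5 (0.0658 to 0.118) and with quantile normalization (adjusted p = 0.185), the block (0.0808) or no filter (0.0606).

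The genes whose pattern over the 10 arrays was most like that of a called member were found by Pearson's correlation over all tested probe sets with 1 gene. For GADD45A they were GTF2H4 (r = 0.980), TP53BP2 at its dimmer probe set (0.972, above background on 1 array) and HSP90AB1 at 1 of its probe sets (0.971, above background on 5 arrays). STK38 shRNA replicate 4 was the lowest array both for GADD45A, at 2.60, and for TP53BP2 at that probe set, at 1.52. For CCNG1 they were MPPE1 (0.966), PPT1 (0.959) and UQCRC1 (0.953), of which MPPE1 and UQCRC1 were not called (limma adjusted p = 0.0889 and 0.113). These correlations share the same arrays and the group difference, and the highest of 6645 probe sets are high by selection.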

How the data were processed

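The deposited log2 values cover 12625 probe sets on 10 Affymetrix HG-U95Av2 arrays. The authors made these log2 values with GCRMA and affy, versions not given, per the submitters' processing notes; the scale was inferred from the range of values. GCRMA pulls dim probe sets to a floor and shrinks their differences. Names come from the platform annotation, brought up to date by Entrez identifier through RefSeq (GRCh38.p14): 10943 of 12558 had 1 gene, 545 several and 1070 none, and 67 were controls. Those with a mean under the 40th percentile (1.93) were left out. Groups were compared in R 4.3.3 with limma 3.58.1 (lmFit, eBayes with trend) over 7535 probe sets, Benjamini-Hochberg, threshold 0.05; the code was tested on simulated data. Single values used exact permutation tests in scipy 1.17.1, and plots matplotlib 3.10.9. Members and lists were chosen with earlier results of these data known. Named were all members, STK38, MYC, CDKN1A, up to 6 genes of each list, called and larger changes first, and the 3 best correlated genes of each called member. PML, NPM1, RPL11, the damage kinases, BAX, PMAIP1, TOB2, GADD45B, GADD45G, CCNG2, MAP3K4, CNOT9 and PABPC1 were added after their values were seen. The number of arrays limits the precision.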

Additional observations from a re-analysis of the deposited data

Results flagged for a closer look

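Of 70 groups of 5 values examined (the members, STK38, MYC, CDKN1A and the leading genes of the 4 lists), 5 held an array whose gap to the nearest other array exceeded 0.710 of the group's range, where chance gives about 1 in 20. In 4 of them the array was STK38 shRNA replicate 4. It read 2.60 for GADD45A where the other STK38 shRNA arrays read 3.31 to 3.55, 2.46 for STK38 (others 2.88 to 2.95), 1.87 for CSNK1A1 (others 2.92 to 3.19) and 2.55 for PPM1A (others 3.56 to 3.94). The other was control replicate 5 for CCNG1, at 7.56 where the other control arrays read 6.98 to 7.13.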

How the results depend on the processing

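GADD45A and CCNG1 kept their direction and their call under each of the scalings, array weights, variance model and filters tried, with log2 fold changes of -0.72 to -0.65 and 0.34 to 0.44, and MDM2, MDM4, BTG1 and PPM1D stayed uncalled there. The replicate numbers of the titles are not stated to pair the arrays. Deviations from the group mean correlated at -0.21 to 0.19 between arrays of equal number, which cannot show whether these were prepared together. With the replicate block 2159 probe sets, the same 2 members and 26 list genes were called. The MDM2 minus MDM4 difference stayed at 0.17 (exact permutation p = 0.375). At a threshold of 0.01, 1494 probe sets were called, 650 of them higher, with 1 member, 0 higher, and 17 list genes, 9 higher and 8 lower. Array weights gave 1619 probe sets and 24 list genes called higher. Leaving out single arrays gave 1 to 2 called members (0 to 1 higher, 1 to 2 lower), 11 to 22 list genes higher, with 22 without STK38 shRNA replicate 4, 11 to 13 lower and 23 to 35 in all, 1947 to 2817 probe sets in all and an MDM2 minus MDM4 difference of 0.056 to 0.24. BTG1 minus BTG2 could not be run, and the filter at the 60th percentile left no MDM2 or MDM4 probe set. Signal near background limits MDM2 and MDM4, whose true differences GCRMA may shrink.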

Other observations

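The B' regulatory subunits of PP2A, the partners of cyclin G1, were looked at after their values were seen. In the main fit of all arrays 1 of them, PPP2R5B, was called higher, though under background on all control arrays. PPP2R5A had a log2 fold change of 0.51 (limma adjusted p = 0.0548), PPP2R5E of 0.27 (0.139) and PPP2R5D of 0.23 (0.223). Without STK38 shRNA replicate 4, PPP2R5A had 0.69 (limma adjusted p = 0.000695), PPP2R5B 0.35 (0.00442), PPP2R5D 0.35 (0.00770) and PPP2R5E 0.37 (0.0119), in a fit that called 2817 of 7535 probe sets. PPP2R5C, the brightest of them, had -0.003 with all arrays (adjusted p = 0.982) and 0.016 without that array (0.890).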
